A study of Homo sapiens with 20 samples.

Results

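The genes described here are 10 of the 59609 gene symbols in the deposited count table. They are RPPH1 and RMRP, the RNA subunits of the ribonucleases RNase P and RNase MRP, 7 genes for proteins of these enzymes (POP1, POP4, POP5, POP7, RPP30, RPP38 and RPP40), and AL355075.4, an annotated transcript that contains RPPH1. They were selected by symbol over all 20 libraries, and the 2 rows named RMRP were summed. RPPH1, RMRP and AL355075.4 were chosen by their measured levels in some of these libraries, in which the RNA RN7SK is also high, and the rest by their known place in the enzymes. Values from that contrast are a description and were not tested.

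RNase P is a ribonucleoprotein that cuts the 5' leader from precursor tRNAs, and RPPH1 is its catalytic RNA. RNase MRP is its relative, with RMRP as the RNA, and it cuts precursor ribosomal RNA in the internal spacer that follows the small subunit rRNA. The enzymes share most of their proteins. Both RNAs are made by RNA polymerase III from promoters that lie upstream of the gene, the same promoter class as that of RN7SK, the RNA that keeps the elongation kinase P-TEFb inactive.

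The samples were SW1990, an established human pancreatic cancer line, and the series describes a mouse model of pancreatic cancer. Labels gave 4 treatments, of 5 samples each, whose names are aims of traditional Chinese medicine. They were the clearing of heat with removal of dampness (heat-clearing), the strengthening of the spleen with regulation of qi (spleen-strengthening), the elimination of heat by nourishing yin (yin-nourishing), and the activation of blood with removal of stasis (blood-activating). Every sample received one of them, no sample was labelled untreated, and the sources used here give no herbs, doses, durations, or age or strain of mice. Nothing in the labels says whether the 5 samples of a treatment were separate mice, tumours or cultures, so p-values measure only the spread between these samples, which may be technical.

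Total counts were 81.7 to 135 M (mega) per library. The share of counts from RN7SK was 5.25 to 7.38% in 5 libraries, heat-clearing 01 and 02 and blood-activating 01, 08 and 09, called the RN7SK-high libraries, and 1.57 to 3.02% in the remaining 15. All 10 spleen-strengthening and yin-nourishing libraries were among the 15. Messenger RNA of the mitochondrial genome made up 10.6 to 15.6% of counts in the RN7SK-high libraries and 17.1 to 23.2% in the rest. The 10 ductal tumour markers, such as KRT8 and EPCAM, summed to 4390 to 7006 CPM (counts per M) over the 20 libraries, and none had a median of 0. The summed level of 7 acinar markers was 0.307 to 599 CPM, and that of 5 fibroblast markers was 22.7 to 68.6 CPM in the RN7SK-high libraries and 16.5 to 49.3 CPM in the other 15. Endocrine markers reached at most 2.04 CPM, endothelial markers 22.2 CPM, leukocyte markers 87.0 CPM and red cell markers 0.910 CPM; GCG, SST, CD3E, HBA1 and HBB had a median of 0. In bulk samples like these, fewer cells of a type and less RNA per cell cannot be told apart.

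The RNA subunits are shown first, as the catalytic or defining parts of the enzymes. RPPH1 is 333 bases long and lies on the minus strand at chr14:20343075-20343407 (GRCh38, GENCODE release 29), where it is a single exon of a gene classed as a ribozyme. RMRP is 264 bases long, also a single exon on the minus strand, at chr9:35657754-35658017. The first 300 bases of RPPH1 and the whole of RMRP are given from the GENCODE transcripts, 5' to 3' with T for U, and the capitals mark the longest run that both share.
RPPH1: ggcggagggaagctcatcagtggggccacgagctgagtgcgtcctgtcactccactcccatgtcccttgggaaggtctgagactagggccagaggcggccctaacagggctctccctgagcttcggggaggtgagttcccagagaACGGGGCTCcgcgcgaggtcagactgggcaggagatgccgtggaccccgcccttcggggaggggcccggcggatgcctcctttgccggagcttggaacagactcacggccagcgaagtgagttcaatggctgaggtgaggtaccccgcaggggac
RMRP: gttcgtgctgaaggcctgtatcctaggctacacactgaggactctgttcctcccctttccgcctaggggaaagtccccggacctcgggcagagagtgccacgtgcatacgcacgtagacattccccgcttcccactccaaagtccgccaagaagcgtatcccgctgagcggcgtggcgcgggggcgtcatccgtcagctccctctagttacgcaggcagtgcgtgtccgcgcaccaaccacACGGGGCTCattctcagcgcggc
The shared run is 9 bases, at positions 146 to 154 of RPPH1 and 242 to 250 of RMRP, counted from the 5' end. GC content is 64.6% in RPPH1 and 63.3% in RMRP.

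Each of the RNA genes stands head to head with a protein gene, RPPH1 with PARP2, which encodes a DNA repair polymerase, and RMRP with CCDC107, which encodes a coiled-coil protein. The first bases of the gaps were read from the RefSeq promoter windows of the protein genes (GRCh38.p14), up to the neighbour's first annotated base. Of the 10 listed genes, 6 had a promoter entry of their own, and RPPH1 and RMRP are named here without one. The plus strand is printed, so the RNA genes start at the left and run away from the gap; the capitals mark TATAA and the octamer ATGCAAAT, searched on both strands.
PARP2 to RPPH1, chr14:20343385-20343581: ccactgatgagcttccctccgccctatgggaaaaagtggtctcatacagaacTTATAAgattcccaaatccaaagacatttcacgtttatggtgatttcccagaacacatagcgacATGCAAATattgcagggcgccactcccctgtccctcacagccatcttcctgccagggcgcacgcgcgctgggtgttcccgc
CCDC107 to RMRP, chr9:35658042-35658289: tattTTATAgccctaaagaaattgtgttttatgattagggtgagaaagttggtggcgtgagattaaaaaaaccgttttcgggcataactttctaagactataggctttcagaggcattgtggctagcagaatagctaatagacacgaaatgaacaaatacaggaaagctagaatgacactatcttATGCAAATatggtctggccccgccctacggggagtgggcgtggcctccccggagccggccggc
The first 23 bases of the window beside PARP2 belong to RPPH1, and the window beside CCDC107 begins 24 bases beyond the start of RMRP. A TATAA match lay 30 to 34 bases upstream of RPPH1, overlapping another on the opposite strand at 31 to 35 bases, and one lay 29 to 33 bases upstream of RMRP. An octamer match lay 94 to 101 bases upstream of RPPH1 and 210 to 217 bases upstream of RMRP. Over 35116 promoter windows of 300 bases, 1.77% held the octamer, 20.4% held TATAA and 0.575% held both, and these matches are a description of letters and not of bound sites. None of the 6 protein genes with a window (POP4, POP5, POP7, RPP30, RPP38, RPP40) held either motif.

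RPPH1 was higher in the RN7SK-high libraries than in every other library. On the scale of CPM after TMM (trimmed mean of M-values) scaling, heat-clearing libraries 01, 02, 03, 07 and 09 held 7794, 6701, 1900, 2196 and 2498 CPM. Spleen-strengthening libraries 02, 05, 06, 07 and 08 held 1799, 2309, 1961, 2608 and 1979 CPM. The first 2 heat-clearing libraries therefore stood apart from the other 3, while the spleen-strengthening libraries stayed within a narrow range. Yin-nourishing libraries 01, 04, 05, 07 and 10 held 2575, 2206, 2533, 1894 and 2293 CPM. Blood-activating libraries 01, 04, 06, 08 and 09 held 8476, 2277, 2746, 6389 and 7940 CPM. Libraries 04 and 06 of the blood-activating treatment lay with the other treatments, and the remaining 3 lay above all of them. The sample titles of these 3 end in the letter b and those of 04 and 06 in C, so letter and level cannot be told apart within that treatment. Of the high heat-clearing libraries, 01 ends in b and 02 in C. The labels do not explain the letter.

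The RN7SK-high libraries had a median of 7794 CPM (range 6389 to 8476) for RPPH1 and the other 15 had 2277 CPM (range 1799 to 2746), a ratio of medians of 3.42. Over the 15 the coefficient of variation was 13.2%. Without TMM scaling the ranges were 6543 to 8791 and 1748 to 2733 CPM, again with no overlap. RPPH1 took 0.654 to 0.879% of all counts in the RN7SK-high libraries and 0.175 to 0.273% in the others.

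RMRP lay the other way. Heat-clearing libraries, in the same order, held 1442, 1228, 2016, 2006 and 2264 CPM. Spleen-strengthening libraries held 1984, 2275, 2369, 2190 and 2252 CPM, so the first 2 heat-clearing libraries were below all 5 of these. Yin-nourishing libraries held 2614, 2324, 2542, 2076 and 2976 CPM. Blood-activating libraries held 1251, 2122, 2443, 841 and 1198 CPM, with libraries 01, 08 and 09 below every library that was not RN7SK-high. The median was 1228 CPM (range 841 to 1442) in the RN7SK-high libraries and 2264 CPM (range 1984 to 2976) in the other 15, a ratio of 0.543. RMRP varied over the 15 with a coefficient of variation of 11.7%.

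**Figure D1:**
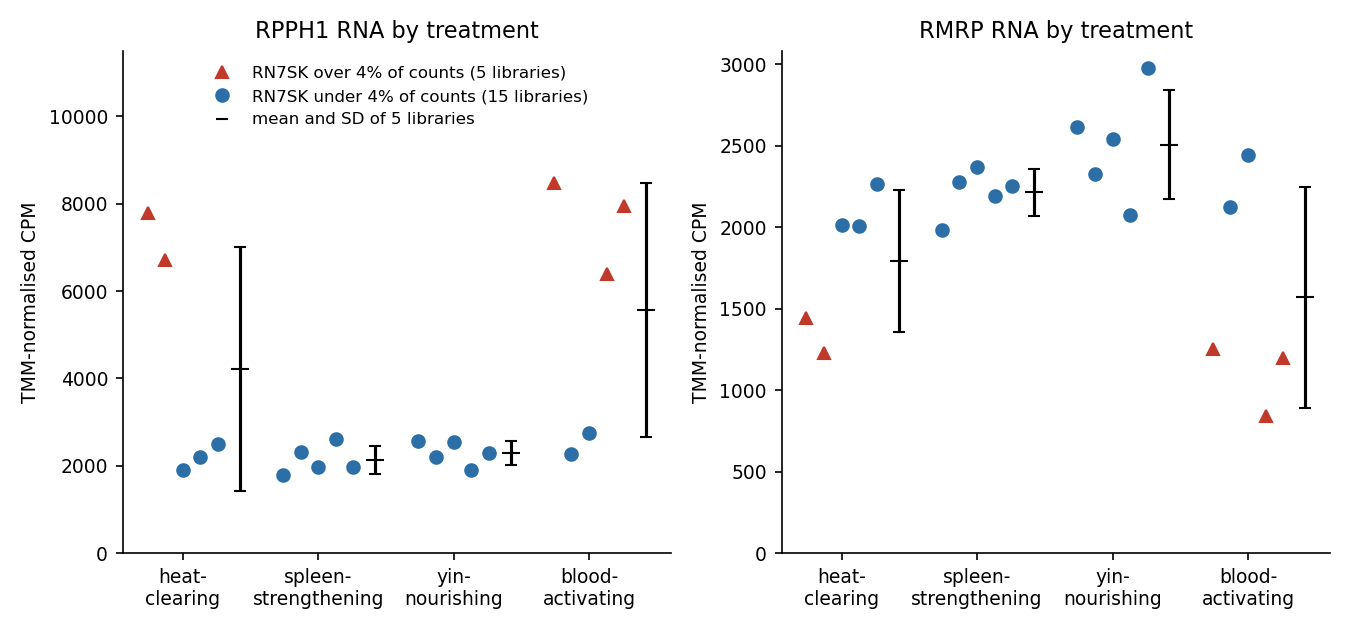
TMM-normalised CPM of RPPH1 (left) and RMRP (right) in each library, by treatment; triangles are the 5 RN7SK-high libraries, circles the other 15, and the black marks the mean and SD of 5 libraries. The triangles lie between 6389 and 8476 CPM for RPPH1, above every circle, and between 841 and 1442 CPM for RMRP, below every circle.

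Among 24699 rows that passed the filter on low counts, the 5 RN7SK-high libraries lay wholly above the other 15 for 7.16% of rows and wholly below for 5.41%. With 0.01 CPM added to each median, the log2 ratio of medians was above 1 for 17.9% of rows and below -1 for 5.91%. Of the 10 genes listed here, 3 lay wholly above (RPPH1, POP7 and RPP38), 1 wholly below (RMRP) and 6 overlapped. Since this contrast helped to choose the list, nothing is read from these counts. The share of RN7SK and of mitochondrial mRNA moved with the same libraries, and their part in the values was not tested.

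The ratio of RPPH1 to RMRP counts within a library needs no scaling between libraries. It was 5.41, 5.45, 0.942, 1.09 and 1.10 in heat-clearing libraries 01, 02, 03, 07 and 09, and 0.907, 1.01, 0.828, 1.19 and 0.879 in the spleen-strengthening libraries. In the yin-nourishing libraries it was 0.985, 0.949, 0.997, 0.913 and 0.771, and in blood-activating libraries 01, 04, 06, 08 and 09 it was 6.78, 1.07, 1.12, 7.60 and 6.63. Thus the RNAs were counted about equally in 15 libraries, with a median ratio of 0.985, and RPPH1 was counted several times as often as RMRP in the other 5, with a median ratio of 6.63. No library lay between 1.19 and 5.41.

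Between treatments, the mean log2 ratio was 1.01 ± 1.31 (SD, n = 5) for heat-clearing, -0.07 ± 0.21 for spleen-strengthening, -0.12 ± 0.15 for yin-nourishing and 1.74 ± 1.46 for blood-activating. The log2 difference was -1.86 for yin-nourishing minus blood-activating, -1.80 for spleen-strengthening minus blood-activating, 1.14 for heat-clearing minus yin-nourishing, 1.08 for heat-clearing minus spleen-strengthening, -0.72 for heat-clearing minus blood-activating and 0.06 for spleen-strengthening minus yin-nourishing. Both RNAs were chosen for their levels in the RN7SK-high libraries, which make up 3 of the blood-activating and 2 of the heat-clearing libraries, so these differences restate that choice and are given without a test. Among the other 15 libraries the difference between yin-nourishing and blood-activating was -0.26 (two-sided exact permutation p = 0.0952, adjusted p = 0.482 over 6 pairs), with 2 blood-activating libraries left. Pairs with blood-activating then had only 21 or 10 arrangements, too few for an adjusted p under 0.05, so nothing is read from their p-values. No other pair passed after adjustment.

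**Figure D2:**
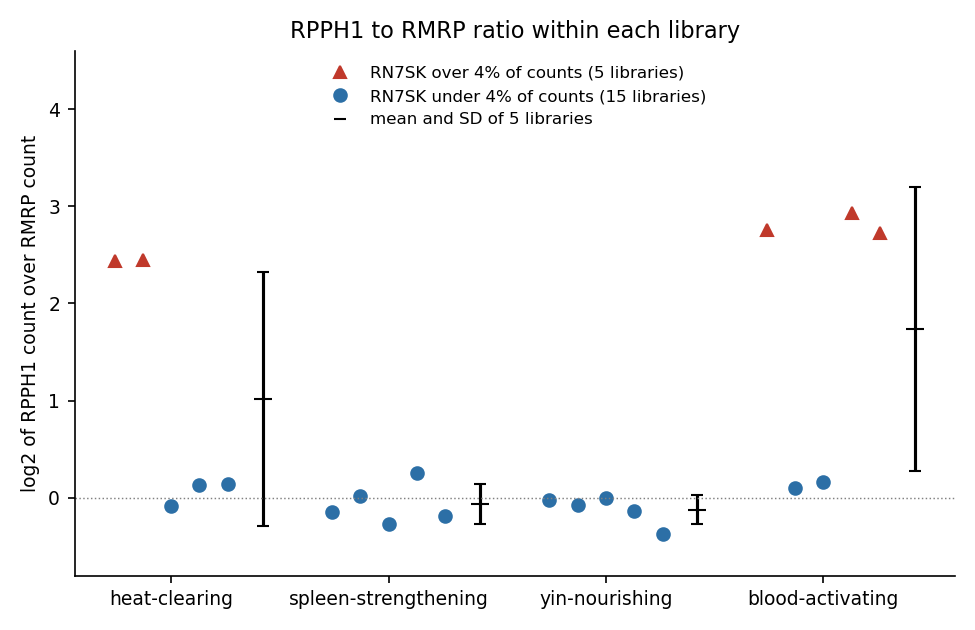
Log2 of the RPPH1 count over the RMRP count in each library, by treatment; triangles are RN7SK-high libraries, circles the other 15, black marks the mean and SD of 5 libraries, and the dotted line equal counts. Circles of all 4 treatments lie around 0, with ratios of 0.771 to 1.19, and the triangles lie at ratios of 5.41 to 7.60, and the 2 treatments with a wide SD hold libraries of both kinds.

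Over the 15 libraries that were not RN7SK-high, the log2 CPM of RPPH1 and RMRP had Pearson r = 0.53 (permutation p = 0.0417) and Spearman rho = 0.62 (p = 0.0152). Neither passed after adjustment over the 17 relations computed between an RNA and the other listed genes (adjusted p = 0.355 and 0.129, 100000 permutations). Without the 2 libraries farthest from the median of RPPH1, r was 0.42. RMRP and AL355075.4 had the closest relation of the 17, with r = 0.74 (permutation p = 0.00135, adjusted p = 0.0230) and rho = 0.77 (p = 0.00126, adjusted p = 0.0214); without the 2 libraries farthest from the median of RMRP, r was 0.72. On CPM without TMM scaling r was 0.71. No other relation passed. AL355075.4 had only 54 to 98 counts in these 15 libraries, and the libraries came from all 4 treatments. Its level was highest of the 15 in blood-activating 06 (1.06 CPM) and yin-nourishing 10 (0.968 CPM). In these 2 libraries the smaller of the summed RMRP rows added 25350 and 37096 counts. The relation was not computed without that row, and its part in the value was not tested.

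AL355075.4, a gene classed as antisense whose role is not described here, spans chr14:20343048-20343685 on the minus strand. All 333 bases of RPPH1 lie inside it on the same strand, and 104 bases overlap the start of PARP2 on the other strand, so reads from RPPH1 can be assigned to either row. Its row held 15154 counts in blood-activating 01 and 13827 in blood-activating 08. In the other 18 libraries it held 54 to 156 counts, including 85 in blood-activating 09, which was also RN7SK-high. Thus 2 of the 5 RN7SK-high libraries stood far above all others. As a share of the counts of RPPH1 and AL355075.4 together, the row made up 1.87 and 1.89% in those 2 libraries and at most 0.0446% in the rest. The sources used here do not say how the counting shared reads between the rows, and its part in this value was not tested.

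RMRP also has 2 annotations, the 264-base ribozyme and a lincRNA of 268 bases at chr9:35657751-35658018 that contains it on the same strand. One of the 2 rows named RMRP carried nearly all counts in 18 libraries, with 0 to 34 counts in the other row. In yin-nourishing 10 the smaller row held 37096 counts, 14.5% of the RMRP total, and in blood-activating 06 it held 25350, or 11.2%. Neither of these libraries was RN7SK-high, and after summing the rows yin-nourishing 10 had the highest RMRP level of all 20 libraries.

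**Figure D3:**
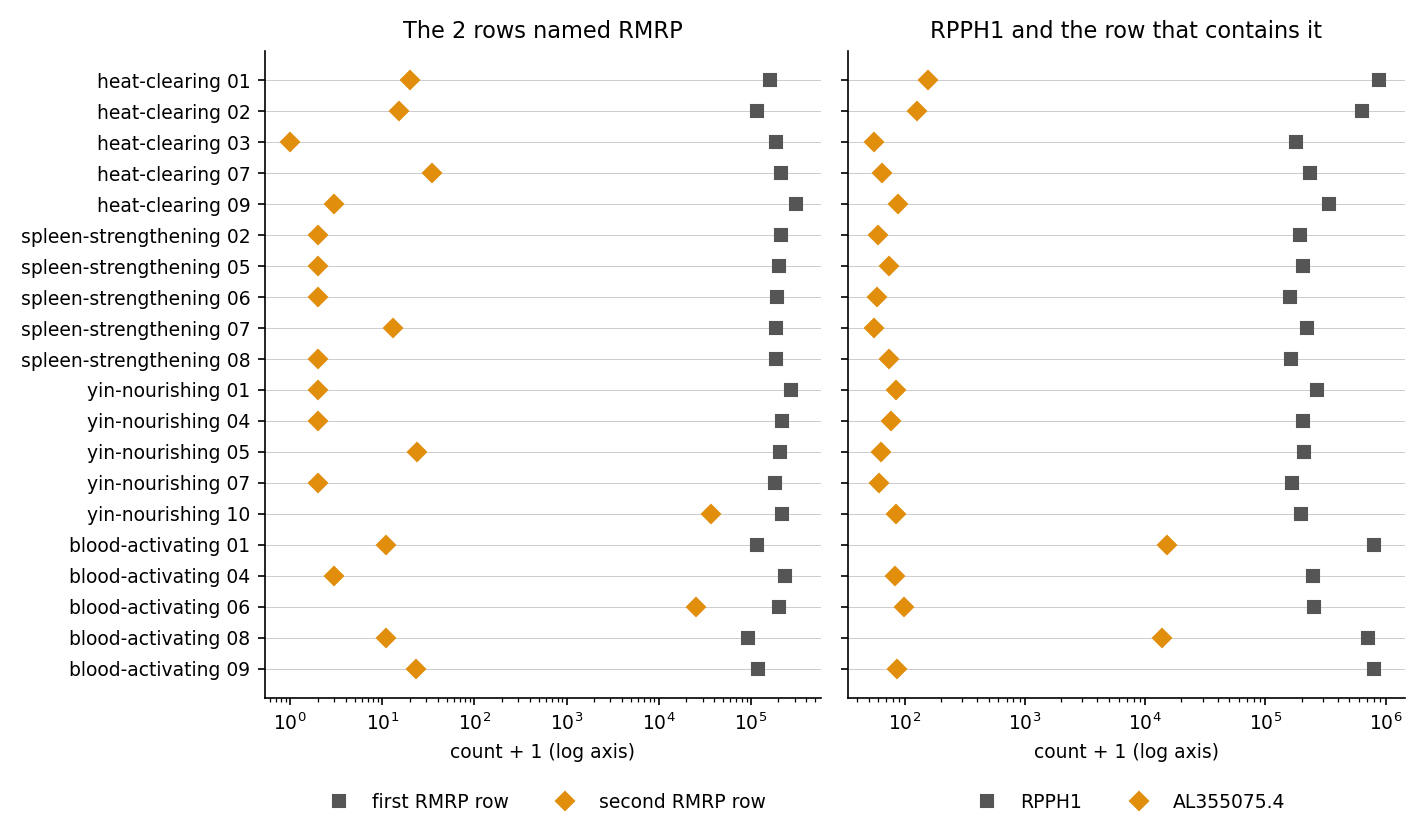
Counts plus 1 on a log axis in each library, for the 2 rows named RMRP (left) and for RPPH1 and AL355075.4 (right). The second RMRP row is high in yin-nourishing 10 and blood-activating 06 alone, and AL355075.4 is high in blood-activating 01 and 08 alone, while the first row and RPPH1 are counted at 94197 or more in every library.

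The protein subunits were measured at far lower levels per length than the RNAs. In the 15 libraries that were not RN7SK-high, RPPH1 had a median of 6839 CPM per kb of exon and RMRP 8446, while the 7 listed proteins ranged from 1.20 (POP1) to 5.47 (POP4) CPM per kb. In rising order of the median level per kb they were POP1, RPP40 at 1.74, RPP38 at 2.33, POP5 at 3.80, RPP30 at 4.19, POP7 at 4.26 and POP4. RPP38 (1.12 to 2.64 CPM per kb) and POP5 (3.05 to 4.44) did not overlap in range, and each other pair of neighbours in that order did, such as RPP30 (3.13 to 5.70) and POP7 (2.69 to 5.74).

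RPP38, a protein that binds a kink-turn of the RNA subunits, stood apart in the RN7SK-high libraries, at 12.4 and 13.8 CPM in heat-clearing 01 and 02 and 12.6, 11.6 and 11.6 CPM in blood-activating 01, 08 and 09. Heat-clearing 03, 07 and 09 held 4.64, 4.51 and 5.05 CPM, and blood-activating 04 and 06 held 3.83 and 5.10 CPM. Spleen-strengthening libraries held 2.91, 4.53, 4.79, 4.68 and 4.15 CPM, and yin-nourishing libraries 4.07, 2.16, 3.71, 3.55 and 4.85 CPM. No library fell between 5.10 and 11.6 CPM, and the ratio of medians was 2.75, or 1.46 on the log2 scale. Of all rows tested, 17.9% had a log2 ratio of medians above 1. The RN7SK-high libraries held 1163 to 1404 counts of RPP38 and the others 202 to 686.

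POP7, a subunit that pairs with RPP25 as a dimer on the RNA, held 6.10, 6.49, 2.66, 4.19 and 5.14 CPM in the heat-clearing libraries and 6.52, 3.01, 4.97, 6.02 and 6.70 CPM in the blood-activating libraries. It was 3.39 to 5.67 CPM under spleen-strengthening and 3.13 to 4.99 CPM under yin-nourishing treatment. The gap between the kinds of library was small, with the lowest RN7SK-high library at 6.02 CPM and the highest other library at 5.67 CPM, and the ratio of medians was 1.54.

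Ranges overlapped for the other 5 proteins. POP5, a small subunit that pairs with RPP14, had a median of 10.1 CPM (8.83 to 12.3) in the RN7SK-high libraries and 8.26 CPM (6.63 to 9.64) in the other 15, and RPP30, a core subunit that pairs with the dimer of POP5 and RPP14, had 16.7 CPM (13.1 to 18.8) and 19.5 CPM (14.6 to 26.5). POP4, which contacts the RNA core, had medians of 28.2 CPM (27.4 to 35.9) and 36.0 CPM (28.8 to 40.3). POP1, the largest subunit, was at 5.78 CPM (3.99 to 7.05) and 5.82 CPM (4.11 to 9.69). RPP40 was at 3.29 CPM (2.26 to 4.65) and 3.41 CPM (1.32 to 7.04), with the widest relative spread over the 15 of the 7 proteins, a coefficient of variation of 40.5%. Thus 2 of the 7 proteins lay wholly above and none wholly below, beside 7.16% and 5.41% of all rows, and nothing is read from these counts. The 5 with overlapping ranges had log2 ratios of medians from -0.35 to 0.29.

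**Figure D4:**
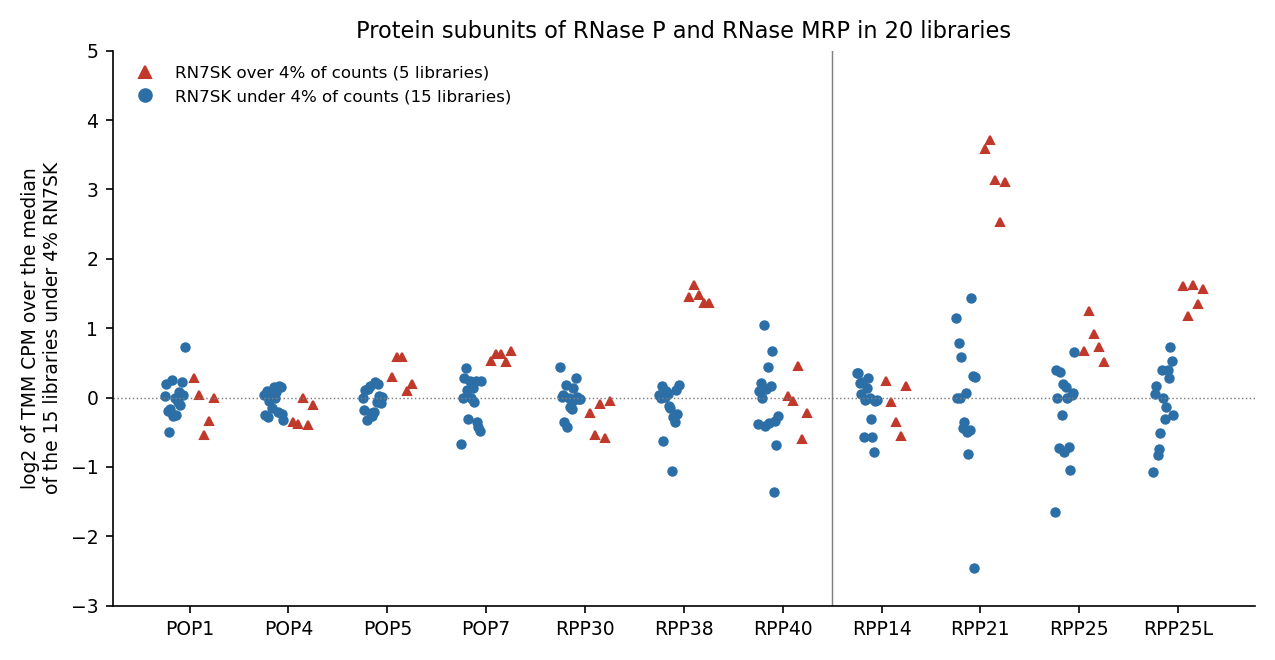
Log2 of TMM-normalised CPM of 11 protein genes, relative to each gene's median in the 15 libraries with RN7SK under 4% of counts; triangles are the 5 RN7SK-high libraries, circles the other 15, and the vertical line separates the 7 listed proteins from the 4 further ones. Triangles lie above every circle for POP7, RPP38, RPP21 and RPP25L and overlap the circles for the other 7 genes.

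The 4 further protein genes of these enzymes, not on the list, were RPP14, RPP21, RPP25 and RPP25L, the last a close relative of RPP25. RPP21, a subunit of RNase P and not of RNase MRP, had 97 to 203 counts in the RN7SK-high libraries and 3 to 36 in the others, or 0.866 to 1.96 CPM against 0.0272 to 0.406 CPM. RPP25L stood at 5.07 to 6.95 CPM against 1.07 to 3.73 CPM. RPP25 was at 3.13 to 5.23 CPM against 0.704 to 3.49 CPM, and RPP14 at 9.47 to 16.4 CPM against 8.02 to 17.8 CPM, and the ranges of both overlapped. RPP14 and RPP21 lie where GENCODE marks overlapping loci, so their counts are uncertain.

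Across the 11 protein genes, the log2 ratio of medians between the kinds of library rose with the mean GC content of a gene's annotated transcripts, with Spearman rho = 0.72 across genes, which share libraries and are not independent replicates. GC content ran from 41.7% (RPP30) to 62.8% (RPP25). POP7, RPP21, RPP25L and RPP38, the 4 that lay wholly above, had 60.7, 59.0, 58.9 and 52.5%. Of the RNAs, RPPH1, at 64.6%, lay wholly above and RMRP, at 63.3%, wholly below. The part of GC content in these values was not tested.

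Whether the treatments differed was asked with edgeR's quasi-likelihood test of all 24699 rows, in which all 10 listed genes passed the filter. No row passed an adjusted p of 0.05 in the test across all 4 treatments, a share of 0%, and so 0 of the 10 did; DESeq2 called 3 of the 10, with 8.39% of the 14619 rows it gave an adjusted p, and limma voom 2, with 8.28% of all rows. At an unadjusted p under 0.05 the test marked 15.5% of all rows and 4 of the 10. These were RPPH1 (edgeR adjusted p = 0.176), RMRP (adjusted p = 0.245), AL355075.4 (adjusted p = 0.172) and RPP38 (adjusted p = 0.172). RPPH1, RMRP and AL355075.4 were chosen by their levels in the RN7SK-high libraries, which the treatments hold in unequal numbers. Their p-values and calls are therefore not independent of that choice, and nothing is read from the 4 of 10. Without the RN7SK-high libraries, 4.44% of 28174 rows and none of the 10 reached an unadjusted p under 0.05, and the smallest unadjusted p among them was 0.118, for RMRP.

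In the 6 pairs of treatments edgeR called 0 of the 10 genes. It called 2 rows, or 0.0081%, between heat-clearing and spleen-strengthening and 0% of rows in each other pair. DESeq2 called 4 of the 10 in at least 1 pair (RPPH1, RMRP, AL355075.4 and RPP38) and 9.21% of its rows, limma voom 3 (RPPH1, RMRP and RPP38) and 21.6%. At an unadjusted p under 0.05, edgeR marked 2 of the 10 (11.5% of all rows) between heat-clearing and spleen-strengthening, 3 (10.3% of all rows) between heat-clearing and yin-nourishing and 1 (1.86%) between heat-clearing and blood-activating. It marked 0 (4.73% of all rows) between spleen-strengthening and yin-nourishing, 4 (20.6%) between spleen-strengthening and blood-activating and 4 (18.2%) between yin-nourishing and blood-activating. The treatments held unequal numbers of RN7SK-high libraries, so for RPPH1, RMRP and AL355075.4 these comparisons are not independent of how the genes were chosen.

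For each gene the pair with the smallest p is given. RPPH1 averaged 2131 ± 325 CPM (SD, n = 5) under spleen-strengthening and 5566 ± 2896 CPM under blood-activating treatment, a log2 fold change of -1.39 (SE 0.40, edgeR adjusted p = 0.0931), and it was -0.23 (SE 0.14, adjusted p = 0.849) without the RN7SK-high libraries. RMRP averaged 2506 ± 336 CPM under yin-nourishing and 1571 ± 678 CPM under blood-activating treatment, 0.67 on the log2 scale (SE 0.22, edgeR adjusted p = 0.143), and 0.14 (SE 0.12) without those libraries. In RPP38 the averages were 3.67 ± 0.98 and 8.96 ± 4.14 CPM for the same pair, -1.29 on the log2 scale (SE 0.36, edgeR adjusted p = 0.141) and -0.28 (SE 0.30) without them. The blood-activating SD exceeded the yin-nourishing or spleen-strengthening SD for each of these genes, and 3 of its 5 libraries were RN7SK-high. AL355075.4 had a log2 fold change of -6.33 (SE 1.35, edgeR adjusted p = 0.0828) between spleen-strengthening and blood-activating, and -0.32 (SE 0.61) without the RN7SK-high libraries, which include both libraries that carried its counts.

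The remaining 6 genes differed less, with edgeR adjusted p from 0.275 to 0.808. POP4 was higher under yin-nourishing than blood-activating treatment by 0.25 (SE 0.12) on the log2 scale and by 0.33 (SE 0.15) without the RN7SK-high libraries. POP7 was -0.44 (SE 0.25) in the same pair and 0.01 (SE 0.32) without those libraries, a turn of direction. RPP30 was 0.20 (SE 0.17) there and 0.08 (SE 0.18) without them. RPP40 was 0.53 (SE 0.32) for spleen-strengthening against blood-activating and 0.79 (SE 0.45) without them, but 0.27 without spleen-strengthening 05 alone. POP5 was 0.27 (SE 0.17) for heat-clearing against spleen-strengthening, 0.07 (SE 0.18) without the RN7SK-high libraries and 0.16 without heat-clearing 02 alone. POP1 was 0.19 (SE 0.21) in that pair and 0.13 (SE 0.22) without the RN7SK-high libraries.

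**Figure D5:**
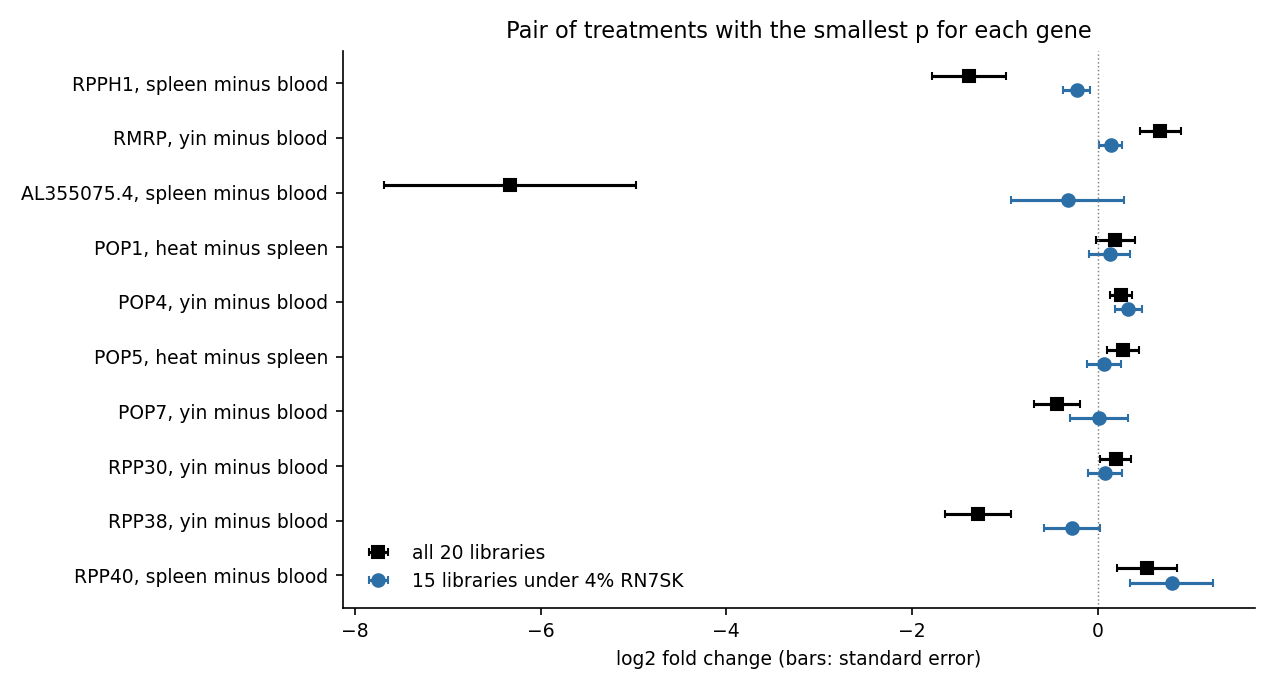
Log2 fold change and standard error for each of the 10 genes in the pair of treatments with its smallest p, from edgeR on all 20 libraries (squares) and on the 15 libraries with RN7SK under 4% of counts (circles). RPPH1, AL355075.4, RMRP and RPP38 lie nearer 0 without the RN7SK-high libraries, while POP4 and RPP40 lie farther from 0.

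Genes that work beside these enzymes were counted from lists, with edgeR's test of the 4 treatments. None passed an adjusted p of 0.05, and each count is to be read against the shares of all rows: 15.5% at an unadjusted p under 0.05, 7.16% wholly above and 5.41% wholly below in the RN7SK-high libraries. The 4 further subunits had 2 with an unadjusted p under 0.05 (RPP21, edgeR adjusted p = 0.197, and RPP25L, adjusted p = 0.238), and their median log2 difference, blood-activating minus spleen-strengthening, was 1.08, against 0.21 for the 10 listed genes and 0.04 for all rows. It was 0.21 without the RN7SK-high libraries. Of 19 other tRNA processing enzymes measured, 3 (15.8%) reached that p, near the share of all rows, led by ELAC2, which cuts the 3' trailer of tRNA precursors (edgeR adjusted p = 0.252), and RTCB, the tRNA ligase (adjusted p = 0.271). The list's median difference was -0.01, and 5 of its genes lay wholly below in the RN7SK-high libraries and 0 above; they included SSB, the La protein that binds the ends of RNA polymerase III transcripts, at 22.7 to 29.8 CPM against 40.6 to 60.1 CPM.

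RNA polymerase III and the factors of its upstream promoters had 11 of 37 genes (29.7%, against 15.5% of all rows) at an unadjusted p under 0.05, among them SNAPC3 (edgeR adjusted p = 0.184), a subunit of the complex that binds the proximal element of such promoters. SNAPC3 was at 32.7 to 39.5 CPM in the RN7SK-high libraries and 50.5 to 78.0 CPM in the others. Of the 37 genes, 4 lay wholly above and 2 wholly below. The list's median difference between blood-activating and spleen-strengthening was -0.003. Among 26 other small structural RNAs measured, 5 (19.2%) reached an unadjusted p under 0.05, led by SCARNA10 (edgeR adjusted p = 0.172) and RN7SK (adjusted p = 0.180), and apart from RN7SK, whose share defines the split, 5 of 25 lay wholly above and 4 wholly below in the RN7SK-high libraries. SCARNA10, a Cajal body RNA, was at 78.8 to 95.1 CPM against 18.8 to 37.9 CPM, and SNORD3A, the U3 RNA of ribosomal RNA processing, was at 36.7 to 113 CPM against 148 to 425 CPM. Of 19 processing factors of ribosomal RNA, 3 (15.8%) reached that p, led by FBL (edgeR adjusted p = 0.190), the methyltransferase of box C/D particles, and BOP1 (adjusted p = 0.224), a factor of the large subunit, and 3 lay wholly above and 1 below.

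The genes next to the RNA genes were compared in the same way. PARP2 was at 17.6 to 20.6 CPM in the RN7SK-high libraries and 17.4 to 30.5 CPM in the others. CCDC107 had 9 to 27 counts against 0 to 156. Both pairs of ranges overlapped.

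Among 14103 rows with a mean of at least 1 CPM, those with levels most like RPPH1 over the 20 libraries included ATP5PD, SCARNA10, ACTR1A and RFNG, with Pearson r of 0.98 to 0.99, and those most like RMRP were PPIA, SRP68, HTATIP2, HAT1 and ACLY, with r of 0.95 to 0.96. The 20 libraries fall into separate sets for both RNAs, so these values rest on the difference between the sets. Within the 15 libraries that were not RN7SK-high the nearest to RPPH1 were RPLP1 (r = 0.93), BTBD6, NME2, SCARNA10 and RPL18AP3 (r = 0.92), and those nearest to RMRP were RPL27 (r = 0.82), TOR2A, RNF181, SPACA9 and RPL34 (r = 0.81). SCARNA10 was among the 5 nearest to RPPH1 in both sets of libraries, and no gene was for RMRP. These are the highest of many values and are given without a test.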

How the data were processed

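RNA-seq was done on total RNA after removal of ribosomal RNA with a directional kit, per the labels' protocols. The submitters' processing notes name HISAT2, StringTie and hg38, with no versions; the sources used here give no annotation, strand setting or removal of mouse reads. The authors deposited whole-number counts per gene, not normalised, in 60656 rows with 59609 symbols. The 1047 rows that repeated a symbol were summed with the first. At totals of 81.7 to 135 M, genes that still had few counts, such as AL355075.4, were measured with less precision.

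After TMM scaling the test was that of edgeR 4.0.16, run in R 4.3.3 (robust quasi-likelihood, default filter with a minimum count of 10, 24699 rows, Benjamini-Hochberg adjustment over all rows, threshold 0.05), with all 20 samples in 1 fit and groups taken from the treatment labels. SEs were derived from the log2 fold change and its F statistic. The edgeR test was checked on simulated counts with known changes in all blood-activating libraries. That simulation held no RN7SK-high subset, so it cannot show how the test behaves where some libraries of a treatment stand apart. DESeq2 1.42.0 and limma 3.58.1 were alternatives, beside other scalings and filters, the title letter, a replicate block, pairs fitted alone and left-out libraries. Ratios of counts were compared by exact permutation, with p-values given only within the 15 libraries that were not RN7SK-high. Log2 CPM for correlations had a prior count of 2. Levels per kb used the union of GENCODE release 29 exons. Same-numbered samples were not paired: the labels do not say that a number is shared.

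The listed genes, the context lists, the RN7SK limit of 4% and the tests were chosen with earlier results of these data known. The text names all 10 listed genes, 4 further subunits, the pair with the smallest p for each gene, the 5 most alike rows, 2 genes per context list by p, and the neighbouring genes; SSB and SNORD3A were added after their values were seen. Some genes that this rule names are not reported here.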

Additional observations from a re-analysis of the deposited data

Results flagged for a closer look

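RPP30 in blood-activating 08 was 13.1 CPM, and the other 4 blood-activating libraries held 18.3 to 19.2 CPM. The gap to the nearest library was 0.844 of the whole range of the 5, above the critical value of 0.71 for Dixon's test. It was the only such library among 44 groups of 5 examined, the 10 genes and the ratio of RPPH1 to RMRP in 4 treatments, and chance gives about 1 in 20. The same library had the lowest RMRP level of all 20, 841 CPM.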

How the results depend on the processing

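With edgeR, 0 of the 10 genes were called under every other scaling, filter, covariate and pairing tried and without the RN7SK-high libraries. In the test of 4 treatments DESeq2 called 3 and limma voom 2, and over the 6 pairs they called 4 and 3; the cause was not tested. Leaving out 1 library gave 0 to 1 called for the 4 treatments and 0 to 3 over the pairs. Without heat-clearing 03, AL355075.4 was among 412 called rows of 25558 in the first and 337 in the second. Without blood-activating 04, AL355075.4 was among 10 called rows of 25519 in the first. RPPH1, AL355075.4 and RPP38 were among 1988 in the second. With all 20 libraries edgeR called 0 and 2 rows, so the calls changed over the whole table. For POP7 the log2 fold change of yin-nourishing against blood-activating turned to 0.0135 without the RN7SK-high libraries, the cause was not tested.

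The log2 ratio of RPPH1 to RMRP, yin-nourishing minus blood-activating, was -0.26 without the RN7SK-high libraries, where fewer samples remained, and -2.27 to -1.56 with 1 library left out. The same ranges were 0.72 to 1.35 for heat-clearing minus spleen-strengthening, 0.78 to 1.41 for heat-clearing minus yin-nourishing and -2.21 to -1.51 for spleen-strengthening minus blood-activating. Both RNAs were chosen for their levels in the RN7SK-high libraries, and leaving out 1 library always kept some of these. The ranges so far therefore restate that choice, and nothing is read from their direction. Spleen-strengthening minus yin-nourishing ranged from -0.02 to 0.11 and turned to -0.0229 without spleen-strengthening 07 and to -0.0070 without yin-nourishing 10; the cause was not tested.

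The replicate block called 0 of the 10 genes, as did the fit without it; the RPPH1 log2 fold change of spleen-strengthening against blood-activating was -1.18 with the block. In their pairs with the smallest p, the block moved AL355075.4 from -6.33 to -3.93, POP1 from 0.19 to 0.47 and RPP30 from 0.20 to 0.08, and limma voom gave -3.38 for AL355075.4 (adjusted p = 0.412). Samples with the same number in 12 pairs had correlations of -0.264 to 0.378, and those with different numbers had -0.519 to 0.471. These values showed no pairing by number, but they cannot decide whether one exists. Within shared numbers the ratio differed by -1.48 between yin-nourishing and blood-activating, from 2 pairs. These included the RN7SK-high library blood-activating 01, so nothing is read from that value. Of 310 alternative fold changes of the 10 genes, 309 kept their direction. For RPPH1, RMRP and AL355075.4 that direction is not independent of how the genes were chosen. Precision was limited for AL355075.4, RPP21 and CCDC107, whose counts were low in most libraries.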
